A study of Mus musculus with 12 samples.

Results

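cJun and H3K4me3 peaks were examined around 10 genes that set the pace of the β cell cycle: the D-type cyclins Ccnd1, Ccnd2 and Ccnd3, the cyclin-dependent kinases Cdk1, Cdk4 and Cdk6, and the kinase inhibitors Cdkn1a, Cdkn1b, Cdkn2a and Cdkn2c. The genes were chosen by name, and every peak within 50 kb of a gene body was taken. The 10 genes stand among 21755 protein-coding genes on chromosomes 1 to 19 and X. Their windows held 13 of 4960 cJun peaks and 40 of 19372 H3K4me3 peaks in DMSO, and 2 of 1632 cJun peaks and 39 of 19032 H3K4me3 peaks in JNKi.

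Peaks came from CUT&RUN, in which an antibody guides a nuclease to release the DNA around its target, in Min6, a mouse insulinoma line that serves as a β cell model and divides in culture. Cells received the JNK inhibitor SP600125 (JNKi) at 20 µM, or DMSO alone, for 48 hours. Antibodies to cJun, to H3K4me3 (the positive control) or non-specific IgG (the negative control) made 6 groups with 2 biological replicates each, and 550000 cells went into a reaction. All groups used the same cell line, so no primary β cell was sampled. The 4 peak lists analysed here each merge both replicates of a group, so presence in a list has no replicate error. The widths and −log10 p-values of the first and the second replicate were kept for each peak and are set side by side, and no test of them was made. A larger −log10 p marks a stronger peak over IgG, and the global irreproducible discovery rate (IDR) estimates the share of irreproducible peaks among those that rank at least as high. The −log10 p, IDR and rank of a peak are read within its own list, while the presence and width of peaks are also compared between treatments. Each sample was sequenced to a nominal 30 M read pairs. The depth left behind each list after filtering, which can move all of these, is not known.

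D-type cyclins bind CDK4 and CDK6, and these kinases phosphorylate the retinoblastoma protein so that cells can leave G1, while CDK1 drives mitosis. The CIP/KIP proteins p21 (Cdkn1a) and p27 (Cdkn1b) inhibit several cyclin-kinase complexes, and the INK4 proteins p16 (from Cdkn2a) and p18 (Cdkn2c) inhibit CDK4 and CDK6. β cells depend strongly on cyclin D2 and CDK4 for postnatal growth, and p16 accumulates in them with age. cJun is a subunit of the AP-1 transcription factor and is phosphorylated by JNK, and H3K4me3 marks the starts of active or poised genes.

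Of the 8 β cell markers examined, 7 had an H3K4me3 peak over an annotated start in both treatments, with Ins1 the exception. Among markers of other cells, Gcg was the only 1 of 4 other islet genes with such a peak, and none of 4 acinar, 3 duct, 3 immune or 3 fibroblast and endothelial genes had one. The cJun lists were of low reproducibility, with a global IDR of at most 0.05 in 8.97% of DMSO peaks and 15.6% of JNKi peaks. This share was 73.0% and 75.6% for H3K4me3.

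Sequences are shown for 7 places on which the results below turn. Coordinates are GRCm38, and each sequence runs 5′ to 3′ on the strand given. Capitals mark CpG dinucleotides, except in the last sequence. The first 3 are the 250 bases before annotated starts, from the RefSeq promoter table (GRCm38.p6). They show the Cdkn1b promoter, which lay in a very wide H3K4me3 domain, and the alternative Cdkn1a promoters, of which the upstream one had no H3K4me3 peak and the main one did. The next 3 are the 201 bases around cJun summits: the Ccnd3 peak, the distal Cdkn1b peak that was absent from the JNKi list, and the Cdkn2c-Faf1 peak that was present in both.
Cdkn1b promoter, chr6:134920151-134920400, plus strand: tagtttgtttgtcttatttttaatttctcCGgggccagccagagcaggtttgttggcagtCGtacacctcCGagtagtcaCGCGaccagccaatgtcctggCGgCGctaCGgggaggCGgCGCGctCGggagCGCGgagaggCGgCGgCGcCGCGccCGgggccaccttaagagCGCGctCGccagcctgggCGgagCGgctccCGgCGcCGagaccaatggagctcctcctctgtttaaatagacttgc
Cdkn1a upstream promoter, chr17:29090729-29090978, plus strand: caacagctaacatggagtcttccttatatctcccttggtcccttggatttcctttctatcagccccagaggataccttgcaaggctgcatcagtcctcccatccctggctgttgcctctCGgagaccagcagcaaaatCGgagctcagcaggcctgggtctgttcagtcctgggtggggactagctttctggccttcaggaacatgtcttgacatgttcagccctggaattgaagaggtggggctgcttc
Cdkn1a main promoter, chr17:29093519-29093768, plus strand: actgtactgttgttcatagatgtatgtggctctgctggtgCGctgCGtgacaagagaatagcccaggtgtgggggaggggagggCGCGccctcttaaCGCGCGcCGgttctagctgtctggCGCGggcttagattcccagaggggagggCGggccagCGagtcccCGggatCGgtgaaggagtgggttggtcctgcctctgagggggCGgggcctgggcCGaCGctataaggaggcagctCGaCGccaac
Ccnd3 downstream cJun summit, DMSO, chr17:47629584-47629784, plus strand: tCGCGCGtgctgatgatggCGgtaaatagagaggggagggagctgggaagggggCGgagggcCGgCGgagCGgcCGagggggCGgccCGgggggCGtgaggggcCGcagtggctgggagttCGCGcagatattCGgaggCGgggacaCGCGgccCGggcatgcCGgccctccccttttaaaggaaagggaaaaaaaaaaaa
Cdkn1b distal cJun summit, DMSO, chr6:134962366-134962566, plus strand: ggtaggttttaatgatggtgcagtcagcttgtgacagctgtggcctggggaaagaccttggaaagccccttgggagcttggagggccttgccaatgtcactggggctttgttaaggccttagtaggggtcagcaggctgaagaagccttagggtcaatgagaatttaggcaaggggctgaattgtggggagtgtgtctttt
Cdkn2c-Faf1 cJun summit, JNKi, chr4:109676317-109676517, plus strand: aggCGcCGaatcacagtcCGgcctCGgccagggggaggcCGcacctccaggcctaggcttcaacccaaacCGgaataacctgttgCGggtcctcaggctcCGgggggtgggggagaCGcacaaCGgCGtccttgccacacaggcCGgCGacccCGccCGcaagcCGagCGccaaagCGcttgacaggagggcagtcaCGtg
AP-1 site of the Cdkn1b upstream cJun peak, DMSO, chr6:134897039-134897067, plus strand, with the AP-1 heptamer in capitals: taatgagccagTGACTCAtctgagtgact

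The sequences differed in their number of CpG. The printed Cdkn1b promoter held 28 CpG in 250 bases and the main Cdkn1a promoter held 19, whereas the upstream Cdkn1a promoter held 2. The Ccnd3 summit held 21 CpG and the Cdkn2c-Faf1 summit 19 in 201 bases, and the distal Cdkn1b summit held 0.

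cJun peaks were listed near 5 of the 10 genes in DMSO (Ccnd3, Cdk1, Cdk4, Cdkn1b and Cdkn2c) and near 1, Cdkn2c, in JNKi. Among all protein-coding genes, 28.4% met this 50-kb rule in DMSO and 12.2% in JNKi. Nearly all members carry H3K4me3 at a start, and among genes that do, the shares were 38.4% in DMSO and 16.6% in JNKi, against 5 and 1 of 9 members. A DMSO peak without any JNKi peak was found at 4 members and at 18.2% of all genes. The JNKi cJun list is also the shorter one over the whole genome. When the DMSO list was cut to the length of the JNKi list by rank, 2 members (Ccnd3 and Cdkn1b) kept a DMSO peak, against 1 member with a JNKi peak. Of all genes, 12.8% kept a DMSO peak under the same limit, close to the 12.2% with a JNKi peak. Peaks with an IDR of at most 0.05 were found at 1 member in DMSO, Cdkn1b (4.22% of all genes), and at none in JNKi (2.74%).

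The 13 DMSO peaks were spread over their list. Their ranks by −log10 p ran from 366 to 4497 of 4960, with a median at percentile 40.9, and 6 of 13 had the highest IDR in the list, 0.729, which was shared by 39.0% of all its peaks. An IDR of at most 0.05 was reached by 1 of 13 (7.69%), against 8.97% of the list. Their median width was 528 bp, against 643 bp for the list. Of the 13 peaks, 7 lay near Cdkn1b and 3 near Cdkn2c, and Ccnd3, Cdk1 and Cdk4 had 1 each. By gene, 2 of 4 inhibitors, 2 of 3 kinases and 1 of 3 cyclins had a peak. Of the 13, 12 overlapped a DMSO H3K4me3 peak, against 53.4% of the DMSO list, and both JNKi peaks overlapped a JNKi H3K4me3 peak (55.5% of the JNKi list). The windows were drawn around genes, most with H3K4me3 at their start, and the list was not.

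**Figure D1:**
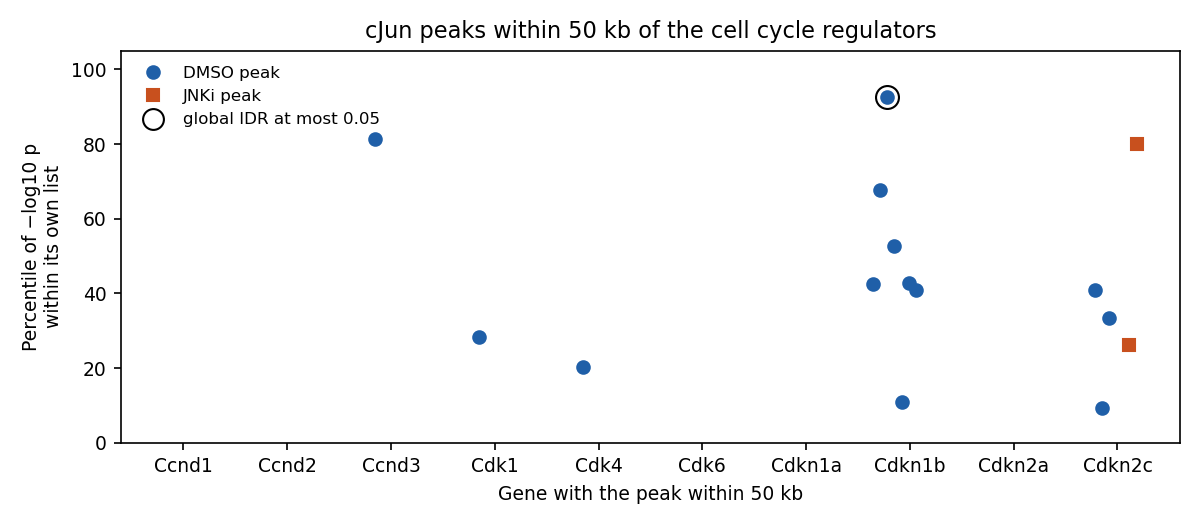
Each point is a cJun peak within 50 kb of the gene on the horizontal axis, and the vertical axis gives its percentile by −log10 p within its own list (circles, DMSO; squares, JNKi; ring, global IDR of at most 0.05). Points of a gene are spread sideways in genome order. Cdkn1b has 7 DMSO peaks and no JNKi peak, Cdkn2c has peaks in both lists, and 5 genes have none.

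The D-type cyclins, the growth-factor-responsive partners of CDK4 and CDK6, had a DMSO cJun peak at 1 of 3 genes, near the 28.4% of all genes. Ccnd1 (chr7:144929931-144939925) had none within 50 kb in either list, and its nearest DMSO peak lay 375.8 kb away in Ppfia1. Ccnd2 (chr6:127125162-127152193) also had none, but peaks of both lists lay at the same place just beyond the window, 66.8 kb away in DMSO and 66.6 kb in JNKi. The Ccnd2-side peak ranked 1314 of 4960 in DMSO (IDR 0.297) and 290 of 1632 in JNKi (IDR 0.0606), and these ranks are not comparable between lists of such different length. Ccnd3 (chr17:47505051-47599691) had a DMSO peak at chr17:47629302-47629805, 29.6 kb beyond its end, with replicate −log10 p of 14.3 and 9.21, an IDR of 0.135 and rank 925. This Ccnd3 peak lay in an intron of Gm20517 and within the H3K4me3 peak over the start of the neighbouring gene Usp49, so it is nearer to another promoter than to that of Ccnd3. No JNKi peak was closer to Ccnd3 than 358.6 kb.

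The kinases had 2 cJun peaks, both low in the list and both in DMSO. For Cdk1 (chr10:69335146-69352938), a 581-bp peak at chr10:69335238-69335818 lay in the last exon, 17.1 kb from the start, with −log10 p of 6.51 and 4.76 and rank 3546. The Cdk1 peak was the only 1 of the 13 outside H3K4me3. For Cdk4 (chr10:127063534-127067920), a 416-bp peak at chr10:127058174-127058589 lay 4.95 kb upstream in an intron of March9 and inside the H3K4me3 peak over the March9 start, with −log10 p of 5.18 and 4.28 and rank 3947. Both had the highest IDR of the list. Cdk6 (chr5:3341485-3531008), the longest of the 10 genes, had no cJun peak nearer than 1769.1 kb in either treatment, and in both lists that nearest peak was in Cdk14.

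Cdkn1b (chr6:134920401-134925513), which encodes p27, had the most cJun peaks: 7 in DMSO and none in JNKi. Over all protein-coding genes, 54 (0.248%) had as many DMSO peaks or more within 50 kb. The nearest JNKi peak lay 89.7 kb away in Crebl2. Of the 7, 2 (ranks 366 and 1608) were within the first 1632 ranks of the DMSO list, which is the length of the JNKi list. The strongest of the 7, chr6:134920424-134920625, covered an annotated start of Cdkn1b. It was only 202 bp wide, with −log10 p of 13.1 and 21.3, an IDR of 0.0324 and rank 366, and it was the only DMSO peak of any member with an IDR of at most 0.05. A 751-bp peak followed it over an exon at chr6:134920850-134921600, with −log10 p of 8.07 and 6.15.

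The other 5 Cdkn1b peaks lay outside the gene. Downstream, 2 peaks at chr6:134928943-134929470 and chr6:134929689-134930535 covered starts of the noncoding genes Lockd and Gm44238. The replicates gave the Lockd peak −log10 p of 3.74 and 12.6, and the Gm44238 peak 5.78 and 5.55. Both had the highest IDR of the list, 0.729, and the Gm44238 peak measured 186 and 847 bp in the replicates. Upstream, 2 peaks over Gpr19 exons, 23.2 kb and 22.2 kb from the Cdkn1b start, ranked 2840 and 1608. The farther of these was the only member peak with an AP-1 heptamer close to its summit, and its IDR was also 0.729. The last peak, chr6:134961836-134962999, was intergenic, 36.3 kb beyond the gene, with −log10 p of 9.72 and 5.46 and an IDR of 0.475. It was the widest of the 13 at 1164 bp.

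The H3K4me3 context of the Cdkn1b peaks was much the same in both treatments, with 1 exception. The 4 peaks from the Cdkn1b start to Gm44238 lay in 1 H3K4me3 domain, and the 2 at Gpr19 lay in another peak, and both domains were listed in JNKi as well. The distal cJun peak overlapped a narrow H3K4me3 peak at chr6:134961784-134962584 (801 bp, replicate −log10 p of 10.1 and 13.7) that was listed in DMSO alone. This H3K4me3 peak ranked 15868 of 19372, with the highest IDR of its list (0.306). At this distal place neither the cJun nor the H3K4me3 peak was in the JNKi lists. Cdkn1a (chr17:29090976-29100727), which encodes p21, had no cJun peak within 50 kb in either list, and the nearest were 256.1 kb away in DMSO and 578.0 kb away, in Fkbp5, in JNKi.

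**Figure D2:**
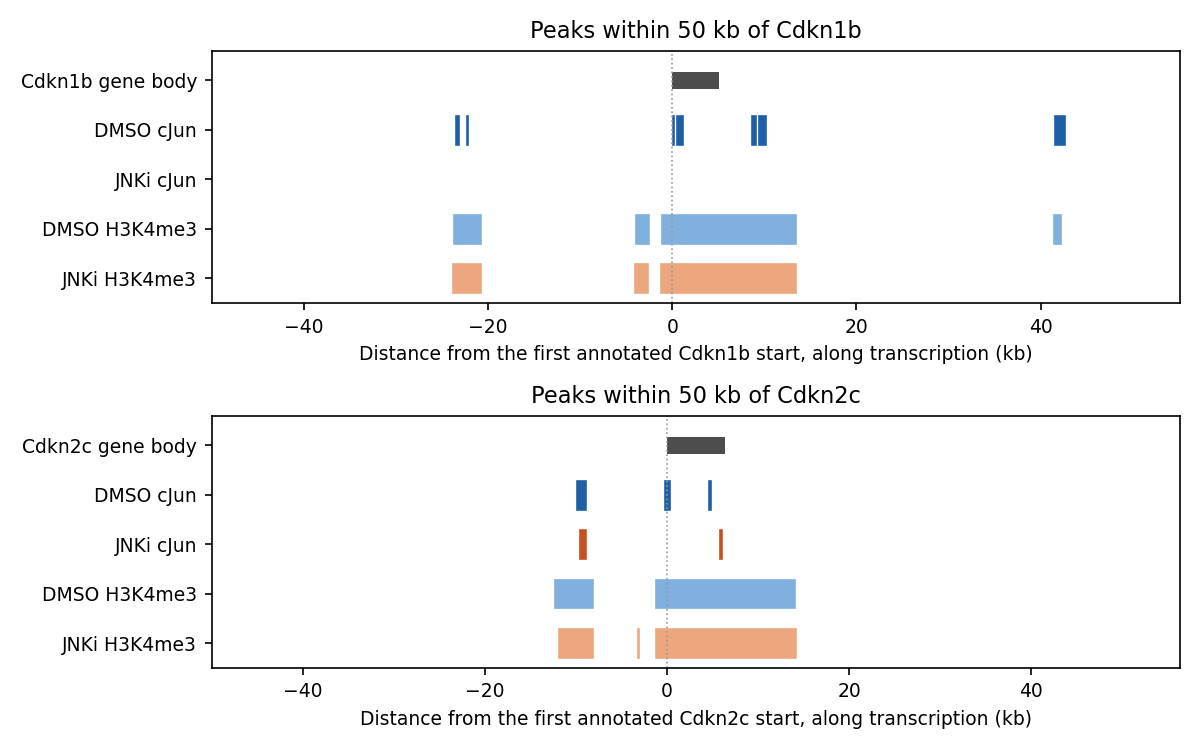
Peaks of the 4 lists are drawn to scale around Cdkn1b and Cdkn2c. The horizontal axis gives the distance in kb from the gene's first annotated start along its direction of transcription, negative upstream, and each row is a list. At Cdkn1b the JNKi cJun row is empty while the wide H3K4me3 domain is alike in both treatments, and at Cdkn2c both cJun rows have peaks.

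Among the INK4 genes, Cdkn2c (chr4:109660876-109667189) had cJun peaks in both treatments and Cdkn2a (chr4:89274471-89294653) had none. The nearest peaks to Cdkn2a were 191.1 kb away in DMSO and 551.8 kb away in JNKi. Cdkn2c had 3 DMSO peaks, a number reached by 3.78% of genes, and 2 JNKi peaks, a number reached by 2.50%. A DMSO peak over a Cdkn2c start, chr4:109666888-109667540, ranked low (4497) by its weaker replicate. Its −log10 p was 3.60 and 13.9 and its IDR 0.553. Inside the gene, a DMSO peak at chr4:109662313-109662733 and a JNKi peak at chr4:109661187-109661453 lay at different places and did not overlap. The third place was the start of Faf1, which is transcribed away from Cdkn2c, where the DMSO peak chr4:109676090-109677195 and the JNKi peak chr4:109676137-109676858 overlapped.

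The Faf1 place was the only cJun peak near any member that was shared by the treatments. Of the 13 DMSO peaks, 1 (7.69%) was overlapped by a JNKi peak, against 23.6% of the DMSO list. With windows of 100 kb, 4 of 18 DMSO peaks (22.2%) were, which is close to the share of the list. At the Faf1 place in DMSO, its −log10 p was 14.5 and 5.02, its IDR 0.529 and its rank 3308 of 4960. In JNKi its −log10 p was 9.37 and 9.86, its IDR 0.107 and its rank 328 of 1632. The JNKi replicates were close to each other at this place while the DMSO replicates were not, and the rank follows the weaker replicate. The JNKi summit lay upstream of the Faf1 start, and the summits of the treatments were more than 200 bp apart.

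The peaks were searched for AP-1 heptamers, TGACTCA or TGAGTCA. Within 100 bp of the summit, 1 of 13 DMSO peaks held one, against 10% of the DMSO list, and neither JNKi peak did (12.1% of the JNKi list). In whole peaks, 2 of 13 held a heptamer (32.6% of the list), the second being the intragenic Cdkn2c peak. The octamer TGACGTCA, which cJun binds in some dimers, was in none of the 13 DMSO and 2 JNKi peaks, against 3.10% of DMSO and 5.21% of JNKi peaks. The heptamers are each other's reverse complement and the octamer is its own, so both strands were covered, and no heptamer lies inside the octamer. The printed Cdkn1b upstream site had its heptamer 10 bases from the summit, in an exon of Gpr19.

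Promoter sequences from the RefSeq table matched 8 of the 10 members with 12 promoters, and none were given for Ccnd1 and Ccnd2. None of the 12 windows, from 250 bases before to 50 after a start, held an AP-1 heptamer or the octamer, whereas 5.20% and 1.79% of 32851 promoters did. Median GC was 63.3% in the members' promoters and 52.7% in all, and the ratio of observed to expected CpG was 0.804 and 0.384. The full set covers 27025 genes and is not limited to genes with H3K4me3 at a start, which nearly all members have. Promoters of marked genes alone were not compared. Within Cdkn1a this ratio was 0.0892 at the upstream start and 0.786 at the main start.

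H3K4me3 covered a start in the basic annotation of 9 of the 10 genes in both treatments, with Ccnd1 the exception. Among all genes the share was 57.3% in DMSO and 56.9% in JNKi. Of the H3K4me3 peaks within 50 kb, 37 of 40 DMSO peaks (92.5%) and 37 of 39 JNKi peaks (94.9%) were matched in the other treatment, close to the 93.4% and 94.3% of the whole lists. Ccnd1 had only a weak peak in an intron. It was 713 bp wide in DMSO, with −log10 p of 14.3 and 7.95, and 947 bp wide in JNKi, with 16.2 and 11.2, and its edge lay 1.46 kb and 1.24 kb from the Ccnd1 start. The comprehensive GENCODE annotation has a further Ccnd1 transcript that starts inside this peak in both treatments, at position 144938197, and by that annotation all 10 members had H3K4me3 over a start. By comparison, a peak over the starts of LTO1 and Bc1, 13369 bp beyond Ccnd1 in DMSO, had widths of 2333 bp (DMSO) and 2328 bp (JNKi).

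Of the 9 marked members, 4 had a domain of 5 kb or more in DMSO, and the same 4 in JNKi (Ccnd2, Cdkn1b, Cdkn2a and Cdkn2c). Only the Cdkn1b and Cdkn2c domains had an IDR of at most 0.05. Those of Ccnd2 and Cdkn2a had 0.306 in DMSO and 0.282 in JNKi. Domains of that width were found at 5.27% of all marked genes in DMSO and 5.46% in JNKi. The Cdkn2c domain measured 15164 and 15397 bp in the DMSO replicates and 15495 and 15361 bp in the JNKi replicates, and it was the 5th widest peak in both H3K4me3 lists. The Cdkn1b domain measured 14417 and 14642 bp in DMSO and 14803 and 14704 bp in JNKi, and was the 7th widest in both lists. These domains are wider than the genes themselves, which span 6314 bp and 5113 bp. The Cdkn2c domain reached 14070 bp downstream of a start in DMSO and took in a start of 9630013D21Rik, and the Cdkn1b domain reached 13397 bp downstream and covered Lockd and Gm44238.

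The other wide domains were much narrower. At Ccnd2 the replicates measured 6258 and 6714 bp in DMSO and 6400 and 6344 bp in JNKi. At Cdkn2a, whose locus makes p19Arf from an upstream start and p16 from a downstream one, the p19Arf start had a domain of 5921 and 6017 bp in DMSO and 6183 and 5901 bp in JNKi. The p16 start had a separate peak of 2016 and 2123 bp in DMSO and 2087 and 2007 bp in JNKi. In both Ccnd2 and Cdkn2a, the replicate widths of the treatments overlapped.

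The remaining starts had peaks of common width. Over all marked genes, the median DMSO width was 2641 bp and the median JNKi width 2703 bp. At Cdk4 the replicates measured 2574 and 2864 bp in DMSO and 3067 and 2527 bp in JNKi, and at Cdk1 they measured 2896 and 3182 bp and then 2948 and 2775 bp. Cdkn1a had 2924 and 3096 bp in DMSO and 3002 and 2790 bp in JNKi, each over its main start. Ccnd3 had 1881 and 2480 bp in DMSO and 2489 and 2386 bp in JNKi over the start of its short transcript, and a narrower peak of 929 and 1055 bp in DMSO and 801 and 1063 bp in JNKi for the long transcripts. In each of these 4 genes the replicate widths of the treatments overlapped, as they did at Cdkn2c.

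Cdk6 and Cdkn1b were the members whose replicate widths did not overlap between treatments. The Cdk6 peak measured 2242 and 2408 bp in DMSO and 1799 and 1522 bp in JNKi, so that the merged peak was 0.747 times as wide in JNKi. A narrower peak in both JNKi replicates was found at 14.6% of 12294 genes. The Cdkn1b domain was wider in both JNKi replicates, as at 20.7% of genes, but its merged width ratio was 1.01. Over the 9 members the median JNKi-to-DMSO width ratio was 1.00 (0.747 to 1.06), and over all genes it was 1.01, with 10% of genes under 0.910 and 10% over 1.12. With 1 replicate of each treatment in place of the merged peaks, the members' median ran from 0.945 to 1.03 over the 4 combinations.

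**Figure D3:**
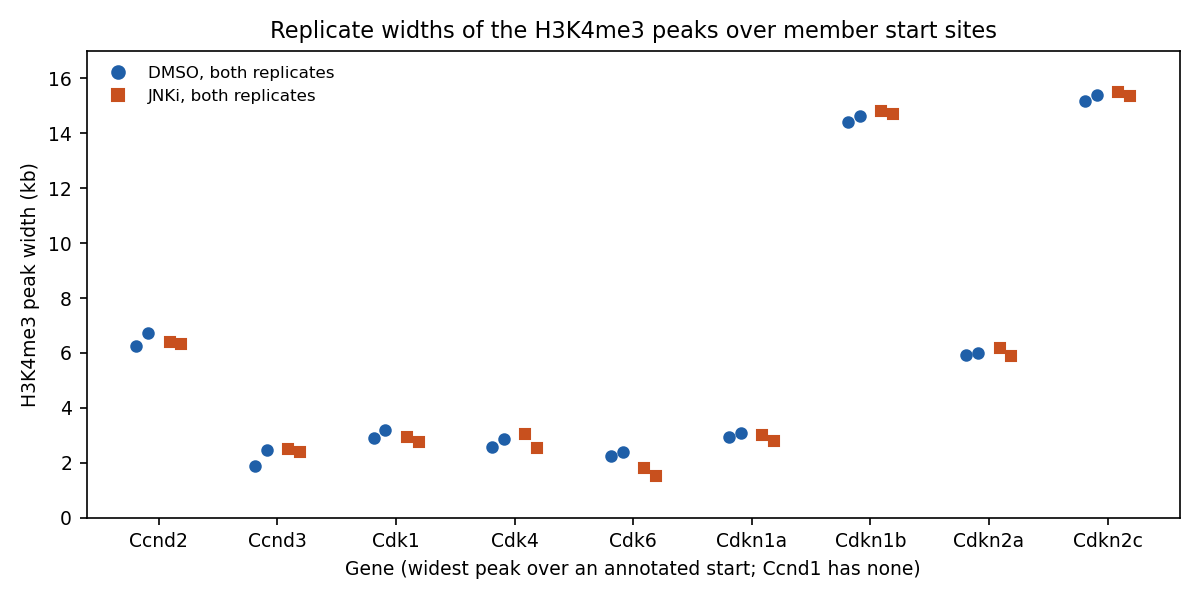
Width in kb of the widest H3K4me3 peak over an annotated start of each gene, with 1 point per replicate (circles, DMSO; squares, JNKi). Cdkn1b and Cdkn2c stand at 14 to 16 kb in all 4 replicates, and the Cdk6 points of JNKi lie below those of DMSO.

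The strength of the H3K4me3 peaks was less even than their width. At Cdk4 the −log10 p was 630.1 and 513.9 in DMSO (rank 254) and 640.0 and 528.6 in JNKi (rank 472), and at Cdkn1b it was 576.5 and 540.8 (rank 175) and 694.4 and 578.7 (rank 245). Cdk4 and Cdkn1b were thus near the top of both lists. Cdk6 was low in both, with DMSO values of 38.5 and 44.6 and JNKi values of 30.7 and 25.1. At Ccnd2 the DMSO replicates had 7.58 and 266.2 and the JNKi replicates 9.23 and 4.54. At the p19Arf start of Cdkn2a they had 20.0 and 375.3 in DMSO and 552.7 and 11.6 in JNKi.

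For Ccnd2 in DMSO and the Cdkn2a p19Arf start in both treatments, the replicates thus differed by more than 10-fold in −log10 p while their widths were close. Such peaks made up 2.11% of the DMSO list and 2.07% of the JNKi list, and their replicate summits lay a median of 863 bp and 934.5 bp apart, against 34 bp and 28 bp in the other peaks. At the p19Arf start the replicate summits were 2360 bp apart in DMSO and 2955 bp apart in JNKi. At Ccnd2 in DMSO they were 1407 bp apart. The paired replicate values thus belong to summits at different places, and the −log10 p, IDR and percentile of these peaks may describe different places in the replicates. The lists do not show whether a replicate had further summits within such a wide region. A list is ordered by the weaker replicate, which put the p19Arf domain at percentile 29.0 in DMSO and 19.6 in JNKi. Ordered by the stronger replicate, it stood at 83.7 and 94.8. In the same 2 orders Ccnd2 stood at 12.5 and 68.7 in DMSO and at 3.00 and 5.71 in JNKi. Both JNKi replicates were low at Ccnd2 (9.23 and 4.54), although the peak was the 161st widest of 19032, at 6596 bp. Its replicate summits lay 387 bp apart, so its values carry the same doubt. A change in strength at Ccnd2 was not tested. The IDR of these Ccnd2 and p19Arf peaks was the highest of its list (0.306 in DMSO and 0.282 in JNKi).

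**Figure D4:**
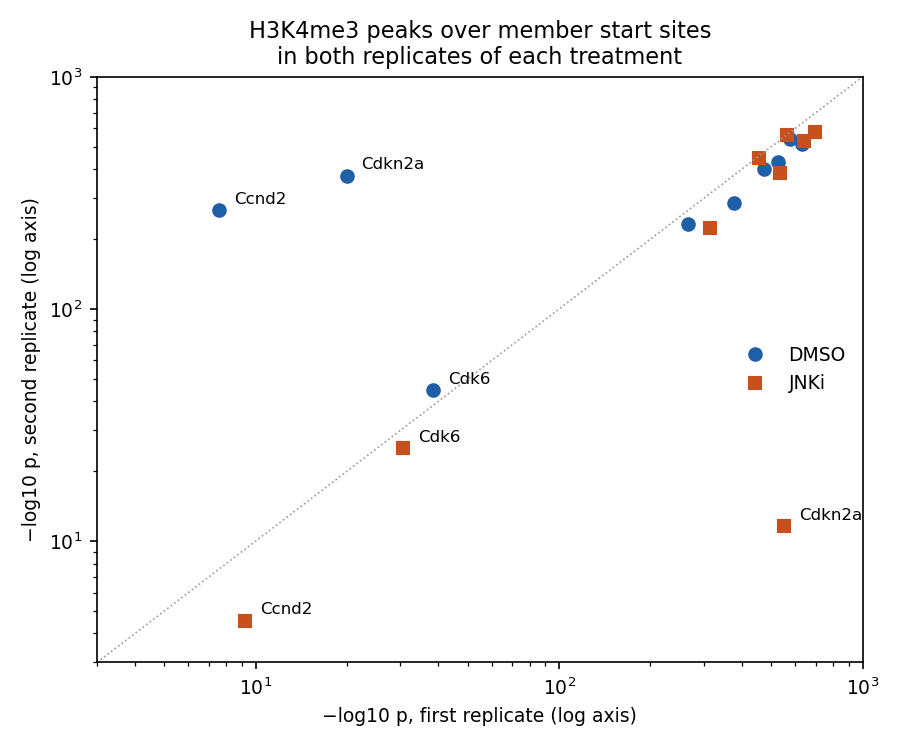
−log10 p of the first against the second replicate for the widest H3K4me3 peak over a start of each gene (both axes logarithmic; circles, DMSO; squares, JNKi; dotted line, equal values). Most points lie along the line at 200 or more, Cdk6 lies on it at 25 to 45, and Ccnd2 in DMSO and Cdkn2a in both treatments lie far from it. Ccnd2 in JNKi is low in both replicates (9.23 and 4.54).

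H3K4me3 peaks found in 1 treatment near members were about as common as in the lists, where 6.60% of DMSO and 5.70% of JNKi peaks were unmatched. In DMSO alone there were 3 of 40, at chr7:144895240-144896208 beyond Ccnd1, at chr5:3501231-3501906 in a Cdk6 intron and at the distal Cdkn1b place. In JNKi alone there were 2 of 39, at chr10:127072085-127072643 beyond Cdk4 and at chr4:109670239-109670441 upstream of Cdkn2c. None covered the start of a gene, and the widest was 969 bp.

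No cJun peak lay within 10 kb of the 50-kb limit on either side. The last DMSO cJun peak inside it was the distal Cdkn1b peak at 36.3 kb, and the first outside it was 61.8 kb from Cdk1. In JNKi the last inside was at 8.95 kb (Cdkn2c) and the first outside at 66.6 kb (Ccnd2). For H3K4me3, the DMSO peak over the Ank3 start was inside at 45.2 kb from Cdk1, and a peak 51.8 kb from Cdk4 was outside.

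Another 47 cell cycle genes (further cyclins, kinases and inhibitors, Rb and E2F genes, replication and mitosis genes, and upstream regulators) were examined in the same way. Of these, 22 (46.8%) had a DMSO cJun peak within 50 kb, 7 (14.9%) had a JNKi peak, and 17 (36.2%) had a DMSO peak alone. The shares over all genes were 28.4%, 12.2% and 18.2%, and among genes with H3K4me3 at a start, as all 47 were in DMSO, they were 38.4% in DMSO and 16.6% in JNKi. None of the 47 had a peak with an IDR of at most 0.05 in either list, which 4.22% of all genes had in DMSO and 2.74% in JNKi. With lists of equal length and no IDR limit, each treatment had 7 genes (14.9%) with a cJun peak within 50 kb. The shares of all genes were 12.8% in DMSO and 12.2% in JNKi. In DMSO 3 of 6 cyclins and kinases, 1 of 3 inhibitors, 4 of 8 Rb and E2F genes, 5 of 10 replication genes, 5 of 12 mitosis genes and 4 of 8 upstream regulators had a peak.

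H3K4me3 covered a start of all 47 genes in DMSO and of 46 in JNKi. The exception was Cdkn1c, which encodes p57, where a 343-bp peak was listed in DMSO alone. The domain was 5 kb or wider in 4 of 47 genes (8.51%) in DMSO and 6 of 46 (13.0%) in JNKi, against 5.27% and 5.46% of all marked genes. The 6 are named after their values were seen, and 4 of them reached 5 kb in DMSO: 6170 bp at Cdkn2d, 5758 bp at Trp53, 5262 bp at Myc and 5075 bp at Ccne2. The other 2, Pcna and Cdc20, measured 4990 and 4741 bp in DMSO and 5053 and 5016 bp in JNKi. All were narrower than the Ccnd2 domain and far narrower than those of Cdkn1b and Cdkn2c. The median width ratio of JNKi to DMSO in this list was 1.00.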

How the data were processed

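Per the labels, 12 CUT&RUN samples of Min6 cells formed 6 groups of 2 biological replicates, each sequenced to a nominal 30 M read pairs of 150 bp. IgG libraries, reads and coverage were not analysed here. The authors trimmed reads with Trimmomatic, aligned them to GRCm38 with Bowtie2 2.4.2, filtered alignments with SAMtools 1.16, called peaks against IgG with MACS2 2.2.7.1 and combined the replicates of a group with IDR. The 4 deposited lists hold, for each peak, a −log10 p-value for the merged peak and for each replicate, −log10 IDR values and a score scaled from the IDR. The merged −log10 p is the lower of the replicates' values, and it gave the ranks (1 is the strongest) and percentiles. The lowest value was 3.01, or a p of about 0.001. The published methods name default settings, which cut at a q-value, and the cut-off behind these lists is not known, since no q-value is given. Replicate columns carry no number and are called first and second. Reads in repeats or in nearly identical copies can be lost in filtering, which the lists cannot show.

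Peaks overlapping a gene body extended by 50 kb were taken, with gene bodies and starts from the GENCODE vM21 basic annotation of GRCm38. Peaks overlap where they share at least 1 bp. For a gene with several H3K4me3 peaks over starts, the widest was used. AP-1 heptamers were searched within 100 bp of the summit. All peaks of the 10 members near cJun or over a start are named, and other genes where a member peak overlaps them. Further cell cycle genes were to be named only with a cJun peak at an IDR of at most 0.05. Members, lists and markers were chosen with earlier results of these data known. No test was made: a treatment has 1 list per antibody, and replicate widths are described by whether the treatments overlap. Overlap and distance steps were tested on simulated data. Alternatives covered the IDR, the window, list length, the overlap rule, the start definition and the motif window. Python 3.11.15, numpy 2.4.6, pandas 2.3.3, pysam 0.24.0 and matplotlib 3.10.9 were used.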

Additional observations from a re-analysis of the deposited data

How the results depend on the processing

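The main values, 18 in number, were recomputed under alternatives, and 51 of 91 recomputed values stayed within 1.5 times the reported count or within the spread between replicates. Other values were not recomputed, among them the domains of 5 kb or more and the genes with a DMSO cJun peak alone. An IDR of at most 0.05 left 1 member and 1 peak for cJun in DMSO (the peak over H3K4me3, with 0 in JNKi, 0 AP-1 sites, 0 shared with JNKi) and 0 of the 47 cell cycle genes in either list, and an IDR of at most 0.01 left 0 throughout. Windows of 100 kb gave 3 members and 4 peaks for cJun in JNKi, all 4 over H3K4me3, and 4 shared among 18 DMSO peaks. Windows of 10 kb gave 21 and 22 H3K4me3 peaks in DMSO and JNKi, 0 AP-1 sites, and 11 and 1 cell cycle genes with cJun. Lists of equal length gave 2 members, 3 peaks and 7 cell cycle genes for cJun in DMSO. With 50% reciprocal overlap 1 DMSO and 0 JNKi cJun peaks were over H3K4me3, and with summits at most 200 bp apart 2 and 0, and then 0 DMSO peaks were shared with JNKi. The reciprocal rule could hardly be met for H3K4me3. The DMSO cJun peaks were 202 to 1164 bp wide, and most lay whole inside an H3K4me3 peak several times wider. The fall under this rule therefore does not bear on whether cJun peaks lay in H3K4me3. Whole peaks gave 2 AP-1 sites. The median percentile of the members' H3K4me3 peaks in JNKi, 88.0, became 93.6 when ordered by the stronger replicate, an alternative chosen after seeing the data. Members with H3K4me3 over a start numbered 7 to 10 in both treatments, with 10 under the comprehensive annotation, which adds a Ccnd1 start. With 1 replicate of each treatment alone, also chosen after seeing the data, the median width ratio of 1.00 ran from 0.945 to 1.03. No paired analysis was possible because the replicate columns carry no replicate number. A replicate could not be left out of the counts, since each list holds peaks of both. The unknown depth of each list after filtering limits every count, and cJun counts rest on peaks with a high IDR.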
